A study of Saccharomyces cerevisiae with 2 samples.

Results

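Molecular chaperones bind other proteins while they fold, cross membranes, assemble or are damaged by stress. The budding yeast genome encodes them in families named for the size of the protein (Hsp90, Hsp70, Hsp60, small Hsps). Some of these families hold both members that are made at all times and members that are known mainly from heat shock and starvation. Many of the inducible ones are known targets of the heat shock factor Hsf1, of the general stress factors Msn2 and Msn4, or of both.

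The 33 genes described here are heat shock proteins and chaperones that were picked by name, and all 33 had a probe set, out of 5449 Saccharomyces cerevisiae genes with a named probe set. Transcript levels were measured once in an alpha-factor culture, which had received 50 ng/ml of the mating pheromone for 3 hours in rich medium, and once in a mock culture that had received none. The sources used here do not say how long the mock culture was incubated. Both cultures were a-type cells of 1 S288c-derived strain with deletions in URA3, LEU2, HIS3, MET15 and BAR1 (ura3Δ0 leu2Δ0 his3Δ1 met15Δ0 bar1Δ::KanMX). The loss of the secreted protease Bar1 leaves the pheromone undegraded. RNA from each culture was labelled and read on 1 oligonucleotide array, the 1-colour Affymetrix Yeast 2.0. With 1 array per condition no value has a replicate error and no difference could be tested, and precision is limited by that number of arrays.

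Levels are the deposited expression values, on a log2 scale that ran from 3.32 to 15.19, and log2 ratios are alpha factor minus mock. A gene was counted as higher or lower when the ratio was 2-fold or more (1 on the log2 scale) and its level exceeded the background in at least 1 array. The background was the 95th percentile of the probe sets for the fission yeast S. pombe, which the same array carries, at 5.49 in the alpha-factor array and 5.50 in the mock array. All 33 chaperone genes lay above it in both arrays. On the same array, 10 S. pombe probe sets carry a gene symbol that one of the 33 also has, and these read 4.10 to 5.34 in the alpha-factor array and 3.86 to 5.72 in the mock array. Of these 10, none exceeded the background in the alpha-factor array and 1 did in the mock array. A probe set's level depends on its probes, so levels are compared between the arrays and not between genes.

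The labels of the cultures were checked on mating genes. PRM3, a karyogamy gene that pheromone induces, was at 14.40 in the alpha-factor array and 7.89 in the mock array, and FUS1, a cell fusion gene, was at 13.85 and 11.12 in the same order. STE2, the alpha-factor receptor that marks a cells, was at 14.25 with alpha factor and 13.72 in mock. STE3, a marker of alpha cells, read 9.49 in the alpha-factor array and 7.74 in the mock array, above the background in both, and MF(ALPHA)2, an alpha-factor gene, read 8.64 and 6.36 in the same order. The other alpha-cell markers were MF(ALPHA)1, at 5.93 with alpha factor and 5.85 in mock, and SAG1, at 9.91 with alpha factor and 9.53 in mock. BAR1 was below background in both arrays. In 4 control transcripts the difference between 3' and 5' probe sets shifted by -0.08 to 0.27 between the arrays, whereas 8 probe sets for the 25S ribosomal RNA had log2 ratios between -5.20 and 0.01. The part of these shifts in the chaperone ratios was not tested.

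Most chaperone genes had log2 ratios near 0, and a few were higher with alpha factor or close to the 2-fold rule. HSP78 and SSE2 were the only ones of the 33 to reach 2-fold, and no chaperone gene was 2-fold lower. That is 6.06% of the 33 genes counted as higher, against 5.51% of 5337 genes above background, and the share of all genes counted as lower was 3.78%. The count of 2-fold genes was therefore near that of the array as a whole. At 1.5-fold, 6 of the 33 (18.2%) were higher and none was lower, against 12.1% higher and 10.7% lower among all genes. The 6 were HSP78, SSE2, HSP42, HSP31, HSP104 and HSP26. The median log2 ratio of the 33 genes was 0.04, against -0.03 over all genes, and the values ran from -0.45 to 1.10. Ratios above 1 were found for 17 of the 33 genes, against 45.8% of all genes. The plot of levels by class shows a few long steps among many short ones.

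**Figure D1:**
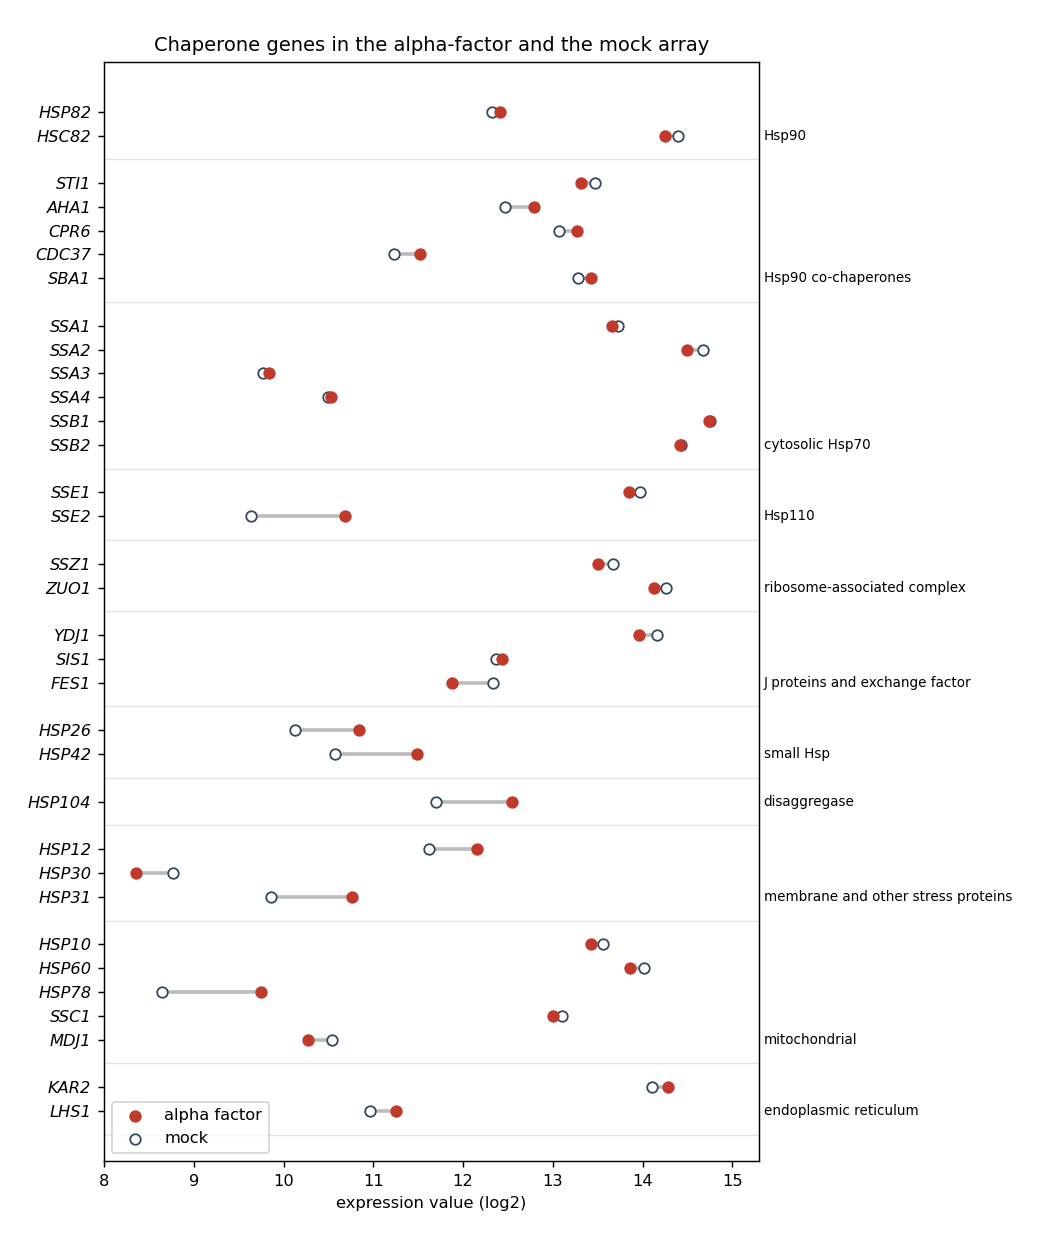
Expression value (log2, horizontal axis) of each of the 33 chaperone genes in the alpha-factor array (filled points) and the mock array (open points), grouped by class. HSP78 and SSE2 are separated by 1.10 and 1.05, while both points of SSB1 and of SSB2 nearly coincide.

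Hsp90 is the chaperone of protein kinases and many other signalling proteins, and yeast encodes it in a pair of near-identical genes. HSP82, the heat-inducible copy, was at 12.42 in the alpha-factor array and 12.33 in the mock array, a log2 ratio of 0.09. HSC82, the constitutive copy, was at 14.25 with alpha factor and 14.39 in mock, a log2 ratio of -0.15. Neither copy came near 2-fold, and the median of the pair was -0.03. As the copies are near-identical, signal may be split between them and the value of each is uncertain.

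The Hsp90 co-chaperones in the set had small ratios, 4 of them above 1 and 1 below. AHA1, which stimulates the ATPase of Hsp90, was at 12.79 with alpha factor and 12.46 in mock. CDC37, which loads protein kinases onto Hsp90, was at 11.52 with alpha factor and 11.23 in mock. The log2 ratios of these 2 genes were 0.32 and 0.29, the largest among the co-chaperones of the set. CPR6, a peptidyl-prolyl isomerase that binds Hsp90, was at 13.27 with alpha factor and 13.07 in mock. SBA1, the p23 protein that stabilises the closed form of Hsp90, was at 13.43 and 13.28 in the same order. STI1, the adaptor that joins Hsp70 to Hsp90, was the one below 1, at 13.31 with alpha factor and 13.47 in mock. The median log2 ratio of the 5 co-chaperones was 0.20.

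Cytosolic Hsp70 genes were the most even class of those with more than 2 genes. The Ssa proteins fold new and damaged proteins and help them cross membranes, and the Ssb proteins sit on ribosomes and meet nascent chains. SSA1 was at 13.66 with alpha factor and 13.72 in mock, and SSA2 was at 14.50 and 14.68 in the same order. SSA3 and SSA4 are the copies known for strong induction by heat, and both were close to even here. SSA3 was at 9.84 with alpha factor and 9.77 in mock, and SSA4 was at 10.53 with alpha factor and 10.50 in mock. Both were well above the background level and below the brightest part of the scale. SSB1 had log2 ratios of -0.02 in each of its 2 probe sets, of which 1 is marked by its name as shared with other transcripts. SSB2 was at 14.41 with alpha factor and 14.43 in mock. The 6 ratios lay between -0.18 and 0.07. SSA1 and SSA2, and likewise SSB1 and SSB2, are near-identical in sequence, so signal may be split between the copies and the values of each are uncertain.

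The Hsp110 pair differed most. Hsp110 proteins are relatives of Hsp70 that act as its nucleotide exchange factors. SSE2 was at 10.69 in the alpha-factor array and 9.64 in the mock array, 2.07-fold higher. SSE1, the main copy in growing cells, was at 13.85 with alpha factor and 13.97 in mock, a log2 ratio of -0.12. The difference between these ratios was 1.17 on the log2 scale. Among the other 4 paralogue pairs compared, HSP82 exceeded HSC82 by 0.24 and SSA1 exceeded SSA2 by 0.12, and for SSA4 against SSA3 and SSB1 against SSB2 the differences were -0.03 and -0.0027. For the pairs called near-identical above, signal may be split between the copies, which makes their differences uncertain. SSE1 lies in the bright range where ratios can be compressed, and the part of that in the SSE2 and SSE1 difference was not tested.

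**Figure D2:**
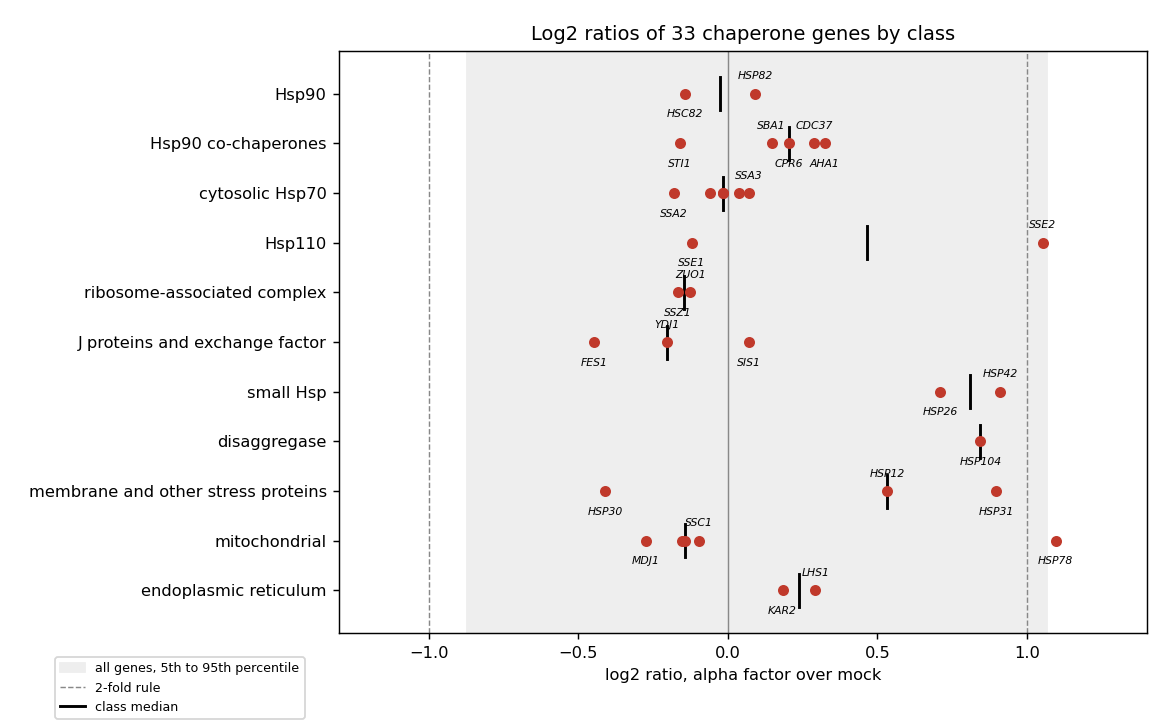
Log2 ratio of alpha factor over mock (horizontal axis) for each of the 33 chaperone genes, 1 point per gene, in 11 classes. Vertical black marks are class medians, dashed lines mark the 2-fold rule, and the grey band spans the 5th to the 95th percentile of all genes above background. The small Hsps and HSP104 lie between 0.71 and 0.91, the cytosolic Hsp70 genes between -0.18 and 0.07, and HSP78 lies apart from the other mitochondrial genes of the set.

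The cytosolic J proteins of the set, FES1 and SSZ1 had ratios near or below 1, unlike the exchange factor gene SSE2 above. The J proteins Ydj1 and Sis1 deliver clients to Hsp70 and stimulate its ATPase. YDJ1 was at 13.96 with alpha factor and 14.16 in mock, and SIS1 was at 12.43 with alpha factor and 12.36 in mock. FES1, an exchange factor of cytosolic Hsp70, had the lowest log2 ratio of the 33 genes, -0.45, with 11.88 in the alpha-factor array and 12.33 in the mock array. That is a 1.36-fold lower level, and 16.3% of all genes had a smaller ratio. The ribosome-associated complex, which pairs the J protein Zuo1 with the Hsp70 relative Ssz1 at the exit of the ribosome, had log2 ratios of -0.13 for ZUO1 and -0.17 for SSZ1. ZUO1 was at 14.13 with alpha factor and 14.26 in mock, and SSZ1 was at 13.51 and 13.68 in the same order.

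The cytosolic disaggregase gene HSP104 and both small heat shock protein genes had ratios above 1.5-fold, and none of these 3 reached 2-fold. Small Hsps bind unfolding proteins and hold them in aggregates from which the hexameric ATPase Hsp104 pulls them out, together with Hsp70. HSP42, the small Hsp active in unstressed cells as well, was at 11.48 in the alpha-factor array and 10.57 in the mock array, a ratio of 1.88-fold. HSP26, the small Hsp of heat shock and stationary phase, was at 10.84 with alpha factor and 10.13 in mock, a ratio of 1.64-fold. HSP104 was at 12.54 with alpha factor and 11.70 in mock, a ratio of 1.79-fold. The log2 ratios of these 3 genes, 0.91, 0.71 and 0.84, exceeded those of 93.5%, 90.4% and 92.6% of all genes. Each lay above every ratio of the Hsp90, Hsp90 co-chaperone and cytosolic Hsp70 genes of the set, of which AHA1 was the largest at 0.32. Genes of a class are not replicates of a condition, so this difference has no test.

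The other stress proteins of the set did not share a direction. HSP31, a DJ-1 family protein with methylglyoxal-detoxifying activity, was at 10.76 with alpha factor and 9.86 in mock, a ratio of 1.86-fold. HSP12, a small membrane-associated protein that is a classic target of Msn2 and Msn4, was at 12.15 with alpha factor and 11.62 in mock, a ratio of 1.45-fold. HSP30, a plasma membrane protein that restrains the proton ATPase Pma1 under stress, was at 8.36 with alpha factor and 8.77 in mock, a log2 ratio of -0.41. Despite its name, HSP30 is no chaperone of the Hsp families above.

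Among the 5 mitochondrial chaperones of the set, the gene of the matrix disaggregase was higher and the other 4 had ratios below 1. HSP78, the mitochondrial relative of HSP104, had the largest ratio of the 33 genes, 2.14-fold higher, with 9.75 in the alpha-factor array and 8.65 in the mock array. It ranked 256 from the highest among 5337 genes. HSP60, the chaperonin of the matrix, was at 13.86 with alpha factor and 14.01 in mock, and its lid HSP10 was at 13.42 and 13.56 in the same order. SSC1, the Hsp70 that drives import into the matrix, was at 13.01 with alpha factor and 13.10 in mock, and its J protein MDJ1 was at 10.27 and 10.54. The log2 ratios of these other 4 lay between -0.28 and -0.10. The lowest of the class was that of MDJ1. HSP60, HSP10 and SSC1 had mean levels above 13 and HSP78 one of 9.20, and the part of level in this difference was not tested. Outside the set, the mitochondrial genes ECM10 and JAC1 had log2 ratios of 0.84 and 0.92. Of the 10 import and folding genes outside the set, 8 had a ratio below 1.

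In the endoplasmic reticulum, where secreted and wall proteins fold, both chaperones had ratios slightly above 1. KAR2, the Hsp70 of the lumen (BiP), which is named for its part in karyogamy, was at 14.28 with alpha factor and 14.10 in mock. LHS1, its Hsp110-like exchange factor, was at 11.25 with alpha factor and 10.96 in mock. The log2 ratios were 0.18 and 0.29, so neither approached 2-fold.

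The spread of the ratios differed between bright and dimmer genes. Of the 33 genes, 16 had a mean level of 13 or more over both arrays, and their log2 ratios lay between -0.20 and 0.20 with a median of -0.12. Of these 16, 13 had a ratio below 1, against 53.9% of genes above background at any level. Among all 551 genes above background with a mean level of 13 or more, the 5th and 95th percentiles were -0.44 and 0.55 and the median was -0.02. The 17 dimmer chaperone genes ranged from -0.45 to 1.10 with a median of 0.29. Of these 17, 14 had a ratio above 1, against 45.8% of genes above background at any level. Among all genes at mean levels of 9 to 11, the 5th and 95th percentiles were -0.95 and 1.00 and the median was -0.02. At levels of 11 to 13 they were -0.71 and 1.06, with a median of -0.08. Across the 33 genes, Spearman's rho of log2 ratio with mean level was -0.43, against -0.03 across all genes above background. The points share the same 2 arrays, so this is a description. How far a compressed scale brings the log2 ratios of the bright chaperones toward 0 was not tested. The 3 dimmer genes with a ratio below 1 were FES1, HSP30 and MDJ1.

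**Figure D3:**
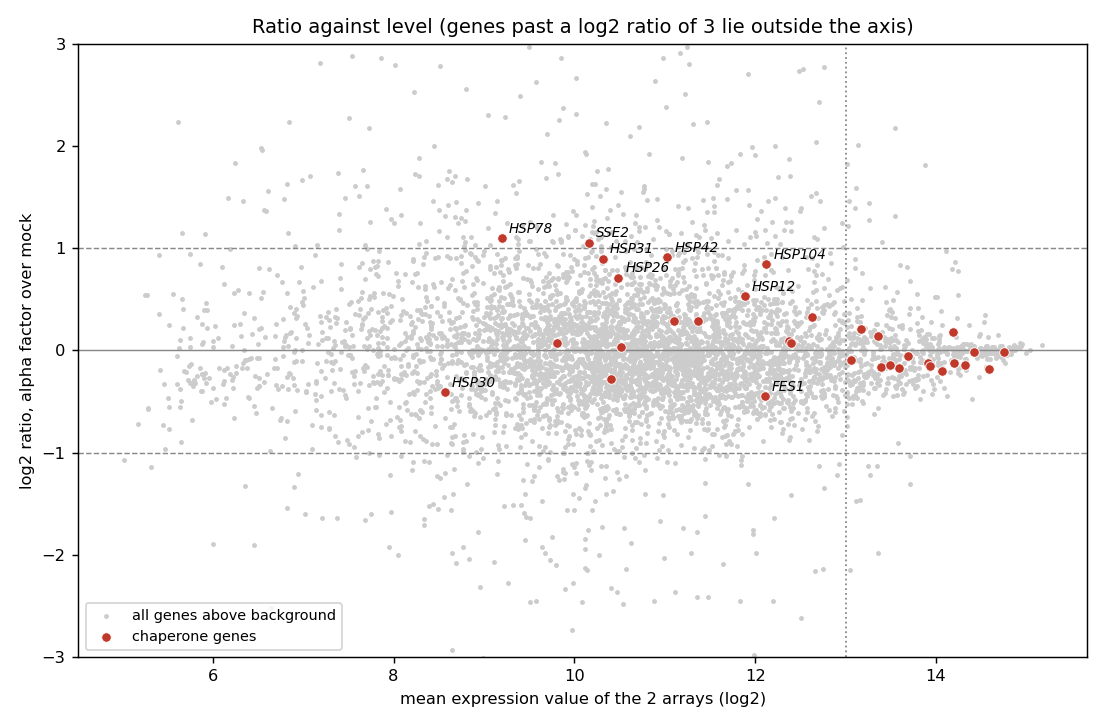
Log2 ratio of alpha factor over mock (vertical axis) against the mean expression value of both arrays (log2, horizontal axis) for all genes above background (grey) and the 33 chaperone genes (red). Dashed lines mark the 2-fold rule and the dotted line a mean level of 13, to the right of which the chaperone genes lie between -0.20 and 0.20. Chaperone genes with a log2 ratio of at least 0.4 in size are named.

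Members separated by 1 annotated gene on a chromosome had unlike ratios, and members that lie farther apart were not compared. HSP104 and SSA2 are separated by 1 protein-coding gene, PAU17. Their log2 ratios were 0.84 and -0.18, and that of PAU17 was 0.35. HSP12 and MDJ1 are likewise separated by 1 annotated gene, and their log2 ratios were 0.53 and -0.28.

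The wider folding network was described with 9 lists that hold 73 further genes with a level above background. Of these 73, none was 2-fold higher and 3 were 2-fold lower, with a median log2 ratio of -0.06. The lower share was 4.11%, near the 3.78% of all genes, and 5.51% of all genes were higher. The 3 lower genes were SNL1, PPT1 and MRH1. SNL1, a membrane-anchored exchange factor of Hsp70, was at 8.28 in the alpha-factor array and 10.74 in the mock array, a log2 ratio of -2.46. PPT1, the protein phosphatase that acts on Hsp90, was at 9.30 with alpha factor and 11.66 in mock, a log2 ratio of -2.36. MRH1, a membrane protein related to HSP30, was at 12.37 with alpha factor and 14.35 in mock, a log2 ratio of -1.98. In linear terms SNL1 was 5.51-fold, PPT1 5.14-fold and MRH1 3.95-fold lower, all further from 1 than any of the 33 chaperone genes.

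Other Hsp90 co-chaperones than PPT1 stayed within 2-fold. Of the 12 on that list, members included, 6 had ratios above 1 and 6 below, with a median of 0.04. Of 7 exchange factors, SSE2 was the one counted as higher and SNL1 the one counted as lower. None of 13 J proteins reached 2-fold. The 2 farthest from even were APJ1, at 8.35 with alpha factor and 9.25 in mock, and JJJ2, at 9.47 and 8.88 in the same order.

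The cytosolic chaperonin CCT, the double-ring complex that folds actin and tubulin, had the narrowest spread of the 9 lists. All 8 subunit genes had a ratio below 1, against 53.9% of all genes, with log2 ratios from -0.27 to -0.12 and a median of -0.23. CCT5 was at 13.40 with alpha factor and 13.67 in mock, and CCT3 was at 12.70 and 12.96. All 8 stayed below 1 under the 4 scalings tried, although none came near 2-fold and most are bright. The 9 genes of prefoldin, which hands actin and tubulin to CCT, and of the nascent polypeptide-associated complex had a median of 0.02 and none reached 2-fold. The farthest were GIM4, at 9.46 with alpha factor and 9.93 in mock, and BTT1, at 8.07 and 8.46.

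Of 19 genes on the endoplasmic reticulum folding list, 14 had a ratio above 1 and 4 below, against 45.8% above and 53.9% below among all genes. The list includes KAR2 and LHS1, and also HAC1 and IRE1, of which IRE1 read 9.92 in both arrays. The 19 genes had a median log2 ratio of 0.29, against -0.03 over all genes, and none reached 2-fold. JEM1, a J protein of KAR2 that also acts in karyogamy, had the largest, 0.67, with 10.04 in the alpha-factor array and 9.37 in the mock array. HAC1, the transcription factor gene of the unfolded protein response, was at 14.07 with alpha factor and 13.52 in mock. The array reads the level of HAC1 RNA, and whether it was spliced was not examined. Of 15 mitochondrial import and folding genes, 12 had a ratio below 1, against that 53.9% of all genes, and HSP78 was the one counted as higher. ECM10, a paralogue of SSC1, was at 8.74 with alpha factor and 7.90 in mock, and JAC1, a J protein of iron-sulphur cluster assembly, was at 9.20 and 8.28. Their log2 ratios were 0.84 and 0.92, just short of the rule.

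**Figure D4:**
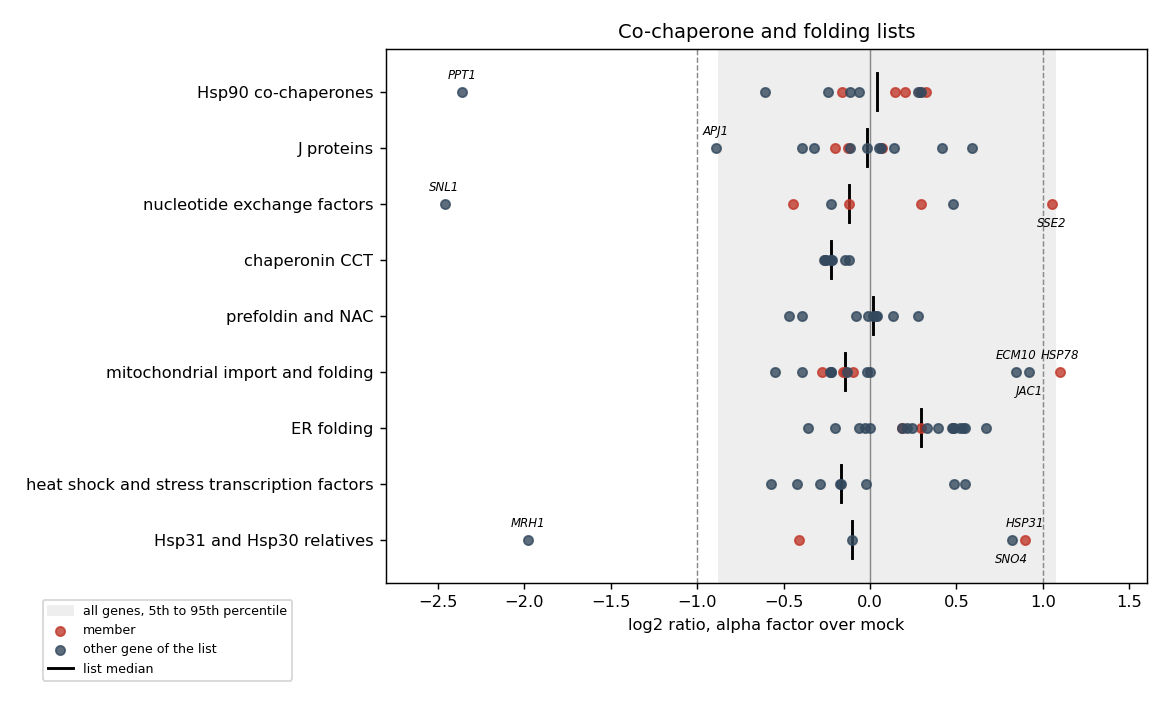
Log2 ratio of alpha factor over mock (horizontal axis) for the genes of 9 folding lists, with the 33 chaperone genes among them in red and other genes in dark blue. Black marks are list medians, dashed lines the 2-fold rule and the grey band the 5th to the 95th percentile of all genes. SNL1, PPT1 and MRH1 lie past -1, and the CCT genes between -0.27 and -0.12.

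The genes of the transcription factors that control heat shock and stress genes were within 2-fold. HSF1 was at 10.24 with alpha factor and 9.75 in mock. MSN4 was at 9.77 with alpha factor and 9.22 in mock, whereas MSN2 was at 10.37 and 10.94 in the same order. MSN2 and MSN4 had log2 ratios of -0.57 and 0.55, the farthest from 0 of the 8 on the list. Their activity is controlled largely by entry into the nucleus, which transcript levels do not show. Of 5 measured relatives of HSP31 and HSP30, themselves included, SNO4, a close relative of HSP31, had a log2 ratio of 0.82 with 6.51 in the alpha-factor array and 5.69 in the mock array, of which the mock value is close to background. Its only probe set is marked as shared with other transcripts, so this value may not be that of SNO4 alone.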

How the data were processed

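Total RNA of 2 cultures, 1 per group, was measured on Affymetrix Yeast 2.0 arrays. The authors deposited 1 log2 expression value per probe set and array, made with the affy package, per the submitters' processing notes and the labels. The sources used here give neither its version nor the background correction, normalization and summary method. That the scale is log2 was taken from the values. The sorted columns differ by at most 0.092, so the ratios are relative to the array as a whole.

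Probe sets were named through the platform annotation and the RefSeq table of assembly R64, which named 5498 S. cerevisiae and 1746 S. pombe probe sets, and the probe sets of 1 gene were averaged. The 33 genes had 34 probe sets. The genes, the 11 classes and the 9 lists were chosen with earlier results of these data known. Named were all 33 genes and, from each list, the genes past 2-fold or the 2 farthest from 1. Mating genes, PAU17, CCT3, CCT5, ECM10, HAC1, IRE1, JAC1, HSF1 and SNO4 were named after their values were seen. No sequences were used here. With 1 array per group no test between the conditions was made. Alternatives were centring on either yeast's median, quantile normalization, loess, the brightest probe set, no shared probe sets, other backgrounds, a pseudocount of 32 and fold rules of 1.5 and 4. Software was statsmodels 0.14.6, scipy 1.17.1, pandas 2.3.3 and numpy 2.4.6 under Python 3.11.15.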

Additional observations from a re-analysis of the deposited data

How the results depend on the processing

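HSP78 and SSE2 were the 2 chaperone genes counted as higher under each of the 4 scalings and with a pseudocount of 32. Taking the brightest probe set or leaving out shared ones could not change their calls, because each has 1 unshared probe set. Both lie far above background, so other background levels or none could not change them either. The 1.5-fold rule gave 6 higher chaperone genes, and 5 higher and 5 lower genes among the 73 related ones. Among all genes above background, 12.1% were higher and 10.7% lower by that rule. The 4-fold rule left 0 higher chaperone genes, with 1 array per group and so no test, and PPT1 and SNL1 as the lower related genes. Of all 5337 genes, only 68 were higher and 54 lower by the 4-fold rule. Across the other settings no log2 ratio of a chaperone gene or class median moved by more than 0.08. The log2 ratio of HSP78 ranged from 1.04 to 1.13 and that of SSE2 from 1.02 to 1.08, so both lie close to the rule. The signs of SSB1 and SSB2, and of the Hsp90 and cytosolic Hsp70 medians, turned with the scaling, between -0.06 and 0.02 in all. Of the 19 genes on the endoplasmic reticulum list, 14 to 17 had a ratio above 1, as did 17 to 19 of the 33 chaperone genes. Of 15 mitochondrial genes, 10 to 12 had one below 1. The scalings also moved the median log2 ratio of all genes, from -0.04 under quantile normalization to 0.00045 with loess. The share of all genes above 1 was not computed for each setting, so these ranges cannot be set against the 45.8% of the reported values. No paired analysis was possible because each group has 1 array. All 33 genes lay above background in both arrays. The part of background signal in their ratios was not tested, nor was compression of bright signal, and no value here has a culture error.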
